A study of Mus musculus with 12 samples.

Results

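The 40 genes described here make up the antioxidant defence that NRF2 and the glutathione and thioredoxin systems provide, followed in mouse microglia by bulk RNA sequencing. They were taken from a list of 40 symbols, and the rule kept genes with at least 10 counts in 3 or more libraries of the deposited table. All 40 met it and all 40 entered the test, out of 55421 genes in the table and 18842 genes tested. The list holds 2 regulators, 3 haem and quinone enzymes, 4 genes of glutathione synthesis and recycling, 1 source of NADPH, 7 thioredoxin system genes, 6 peroxiredoxins, 3 glutathione peroxidases, 4 superoxide dismutase and catalase genes, 5 genes of glutathione conjugation and export, 2 ferritin chains, Osgin1, and 2 subunits of the NADPH oxidase.

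The series compared mice with and without Slc2a5, which encodes the fructose transporter GLUT5, and only its sorted, cultured microglia are used here. The control animals (WT here) carried the Cx3cr1EGFP reporter, and the knockout animals (KO here) were Slc2a5-/-::Cx3cr1EGFP, so the reporter allele of Cx3cr1 is shared by all libraries. Brain microglia from mice given as P35 to P40 were collected by fluorescence sorting and held for 6 h without oxygen and glucose (oxygen-glucose deprivation, OGD), which imitates ischaemia in the dish. They were sequenced either then (WT-OGD, KO-OGD) or after 24 h of recovery (WT-recovery, KO-recovery), with 3 libraries in each of the 4 groups. One treatment field, that of WT-recovery replicate 1, names no recovery, and the library was grouped by its title. No culture without OGD was analysed here, so recovery is compared with the end of OGD and not with an unstressed state. Nothing in the labels says that replicates are separate animals or cultures, and p-values then measure the spread between these libraries only.

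NRF2, the product of Nfe2l2, is a transcription factor that KEAP1 holds in the cytoplasm and sends for degradation. Oxidants and electrophiles modify KEAP1, NRF2 then enters the nucleus and, with a small MAF protein, binds the antioxidant response element in front of genes for glutathione synthesis, NADPH supply, quinone and haem breakdown, and thioredoxin recycling. Glutathione and thioredoxin are the reducing agents that glutathione peroxidases and peroxiredoxins use to remove peroxides, and both are recharged by reductases that draw on NADPH. In microglia these systems work against the superoxide that the cells' own NADPH oxidase makes.

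Library totals ran from 9885259 to 45347118 counts, and levels are given as CPM, counts scaled to a library total of 1000000, on which 1 count was worth 0.0208 to 0.114. Library values are listed in the order of replicates 1, 2 and 3. The mitochondrial share of counts was 4.20% to 5.75% after OGD and 4.72% to 18.4% after recovery, highest in WT-recovery replicate 1 and KO-recovery replicate 2. Slc2a5, the deleted gene, had 45, 40 and 58 counts in WT-OGD against 17, 4 and 17 in KO-OGD. After recovery it had 1, 2 and 0 counts in WT and 1, 0 and 0 in KO, so it does not check the labels there. All libraries are labelled male and the Y-linked gene Ddx3y was present in all, yet Xist had 4101 to 10232 counts in 9 of the 12 libraries and 0, 3 and 0 in WT-recovery. In comparisons that use WT-recovery, genotype or recovery cannot be told apart from this difference, which bears first on the X-linked members Cybb and Prdx4. Csf1r, Itgam and Cx3cr1 were present in every library, while Siglech was at 0 in 9 libraries and Tmem119 stayed at 0.0295 to 0.263 CPM after OGD. Mrc1, a gene of macrophages at the brain's borders, ranged from 734 to 1073 CPM. KO-recovery replicates 1 and 3 held 459.6 and 380.4 CPM in total of 8 connective tissue, muscle and cartilage genes, against 20.2 CPM in KO-recovery replicate 2. In bulk libraries such as these, fewer cells of a type and less RNA per cell cannot be told apart.

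The element NRF2 binds has the core TGACNNNGC, where N is any base. This core was searched on both strands in RefSeq promoter windows of 300 bases (GRCm38.p6). A window runs from 250 bases before to 50 after a RefSeq start of the gene. Windows were found for 33 of the 40 genes. Those of Hmox1, Gclc, Gsr, Prdx6, Sod3, Gsta4 and Abcc1 were not matched. Gene coordinates here are those of GRCm38. The core was present in a window of 7 of these 33 genes (21.2%). Over all 27025 genes with a window it was present for 3781 (14.0%), so its share here lies near that at large. The 7 matches are shown because they include genes that the comparisons below turn on. Each is read on the strand of the motif, 5′ to 3′, with the core in capitals and 10 bases on either side.
Gclm, chr3:122245413-122245441: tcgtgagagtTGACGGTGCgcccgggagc
Me1, chr9:86695902-86695930: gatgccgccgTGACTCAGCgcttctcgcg
Nfe2l2, chr2:75704885-75704913: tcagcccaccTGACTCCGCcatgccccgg
Prdx1, chr4:116685456-116685484: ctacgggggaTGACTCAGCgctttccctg
Sod1, chr16:90220696-90220724: ggcctgagtcTGACCACGCccaccttggc
Srxn1, chr2:152105542-152105570: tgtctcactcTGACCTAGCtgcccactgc
Txnrd1, chr10:82859104-82859132: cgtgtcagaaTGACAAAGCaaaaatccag
The motif lies on the gene's own strand in Me1 and Nfe2l2 and on the opposite strand in the other 5. The Txnrd1 window belongs to a start inside the gene, which spans chr10:82833951-82897712 on the forward strand. Me1 and Prdx1 share the same core, TGACTCAGC. Counted along each gene from its start, that core runs from position -6 to 3 around the annotated start of Me1 and from -133 to -125 at Prdx1. A match describes these letters only, and binding was not measured.

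Ferritin led the list in level. Per kilobase of exon and averaged over 12 libraries, Fth1, the ferritin heavy chain, stood at 4228 CPM and Ftl1, the light chain, at 4139. Prdx1 followed at 655 CPM per kb, then Hmox1 at 338, Txn1 at 234, Cybb at 232, Gstm1 at 170 and Gpx1 at 128. At the low end were Gss with 3.67, Osgin1 with 3.32, Gsta4 with 1.19 and Sod3 with 0.812 CPM per kb, and Nqo1 stood at 7.31. Nfe2l2 itself was at 56.1 and Keap1 at 7.90 CPM per kb. Some levels are uncertain because near-identical copies or overlapping exons compete for reads: copies took 42.8% of the joint counts of Gpx4 and its copies, 25.9% for Gstp1, 16.1% for Sod1, 11.5% for Prdx1 and 11.3% for Gstm1. Exons of Ftl1, Gclm, Gss, Keap1, Me1, Ncf1, Prdx2, Prdx5, Txnip and Txnrd2 overlap another gene, and whether counting used strand is not given in the sources used here.

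**Figure D1:**
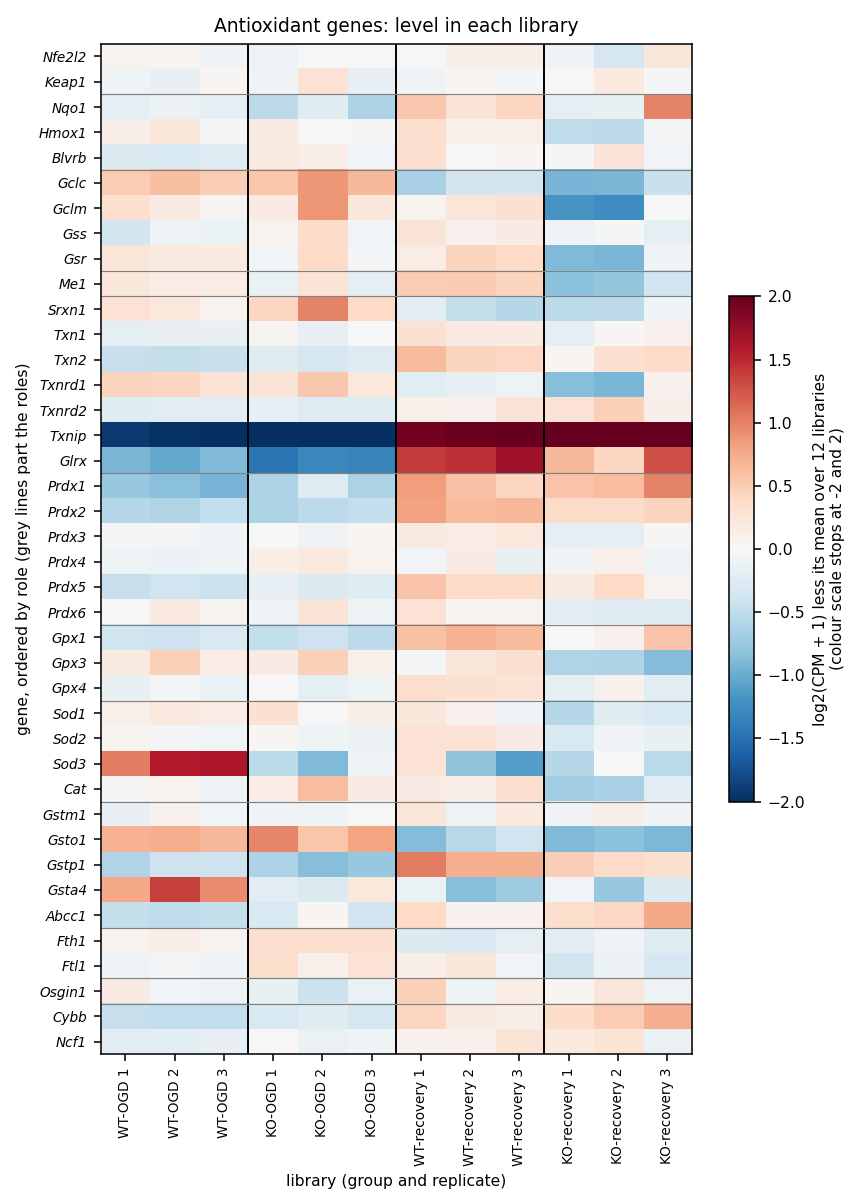
Level of each of the 40 genes (rows, grouped by role) in each of the 12 libraries (columns, 3 per group), as log2(CPM + 1) less the gene's mean over the 12 libraries. Txnip and Glrx are low after OGD and high after recovery in both genotypes, and KO-recovery replicates 1 and 2 are lower in Gclm, Gsr and Txnrd1 than replicate 3 is.

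Right after OGD few of these genes were called between the 2 genotypes at an edgeR adjusted p below 0.05. Sod3, the extracellular superoxide dismutase, and Gsta4, a transferase that conjugates lipid aldehydes to glutathione, were lower in KO, and Blvrb, a biliverdin reductase, was higher. The other 37 genes did not pass the test, among them Nfe2l2, Keap1 and their targets Hmox1, Gclc, Gclm, Nqo1 and Txnrd1. Thus 1 gene was higher, where 0.966% of all genes tested were, and 2 were lower, where 6.52% were. The median log2 fold change of the 40 was 0.01 against -0.01 over all genes. An unadjusted edgeR p under 0.05 was found for 14 of the 40, and the share over all genes at that threshold was not counted. The 3 calls became 1 without WT-OGD replicate 2 or without KO-OGD replicate 1, and 10 with no filter on low counts. Over all genes the 1411 calls became 760, 747 and 2148 in these fits. DESeq2 called 5 of the 40 higher and 2 lower, and over all genes it called 506 higher and 1270 lower where edgeR called 182 and 1229.

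After a day of recovery KO cells had less of many of these transcripts than WT cells. Lower in KO were 15 of the 40, where 12% of all genes were, and only Txnip was higher, where 10.1% of all genes were. The 15 were Me1, Gsr, Gpx3, Cat, Glrx, Hmox1, Sod1, Gstp1, Sod2, Gpx4, Gpx1, Prdx6, Ftl1, Prdx3 and Prdx2, with log2 fold changes from -1.20 to -0.29. The median over the 40 was -0.27 against 0.01 over all genes, and 30 of the 40 values were negative. A fit of the 6 recovery libraries alone called 10 of the 40 in place of 16, and 2756 of all genes in place of 4175. Without KO-recovery replicate 3, described further on, 22 were lower and 1 was higher. Over all genes 2938 were then lower and 2341 higher, against 2266 and 1909 with it.

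Between the end of OGD and recovery 26 of the 40 genes changed in each genotype. In WT, 19 genes were higher after recovery, where 26.9% of all genes were, and 7 were lower, where 29.9% were. In KO, 12 were higher (29.3% of all genes) and 14 were lower (29.6% of all genes). The median log2 fold change was 0.23 in WT, against -0.03 over all genes, and -0.02 in KO, against 0.00 over all genes. Higher in both genotypes were 11 genes: Abcc1, Cybb, Glrx, Gpx1, Gstp1, Prdx1, Prdx2, Prdx5, Txn2, Txnip and Txnrd2. Lower in both were Fth1, Gclc, Gsto1, Srxn1 and Txnrd1. These 2 comparisons share no library. Recovery libraries held 9885259 to 19915479 counts and OGD libraries 31509859 to 45347118. A gene called in one genotype and not in the other is not thereby shown to differ between them, and that difference was tested on its own. With the summed astrocyte markers described further on as a covariate, 17 of the 40 were called in KO, 11 higher and 6 lower. Over all genes 6734 were called in that fit in place of 11113. The sums did not overlap between KO-OGD (55.0 to 76.3 CPM) and KO-recovery (81.8 to 121), so that fit cannot tell their part from recovery. The lower calls of Hmox1, Gclm, Gsr, Me1, Srxn1, Txnrd1, Cat and Prdx6 and the higher call of Prdx5 were lost in that fit. Many markers of other cells were also called higher after recovery, and some were called lower. All 8 oligodendrocyte markers were called higher in both genotypes, their sums going from 49.99 to 51.4 CPM in WT-OGD to 172 to 214 in WT-recovery and from 49.3 to 63.0 in KO-OGD to 131 to 154 in KO-recovery, with Sox10 at 0 in 3 libraries. Of 9 neuron markers and of 8 border macrophage markers 6 each were higher in either genotype, and 1 of each list was lower in WT. Of 11 astrocyte markers 2 were higher and 2 lower in WT, and 3 were higher in KO. Of 7 monocyte markers 5 were higher in WT, and in KO 4 were higher and 1 lower. Their sums were 14.1 to 17.8 CPM in the OGD libraries and 46.3 to 67.0 in the recovery libraries, with Plac8 at 0 in 10 of 12. All 8 connective tissue, muscle and cartilage genes were higher in KO and 2 were in WT. The part of these cells in the recovery changes was not tested.

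**Figure D2:**
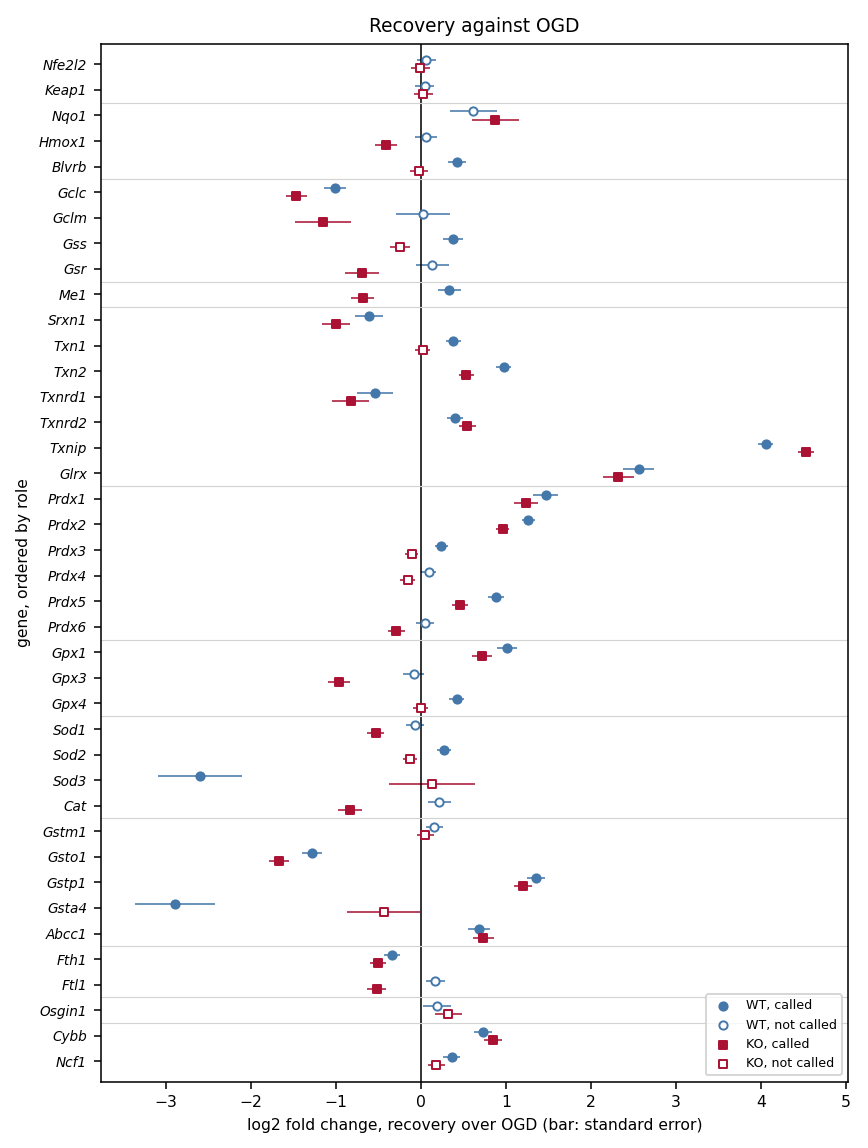
Log2 fold change of recovery over OGD (horizontal axis) for each of the 40 genes, in WT (blue circles) and KO (red squares), with bars of 1 standard error, filled where the edgeR adjusted p was below 0.05. Txnip at 4.05 and 4.53 lies far to the right, Me1 is called on opposite sides, and Gclc and Gsto1 lie to the left in both genotypes.

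The recovery change itself differed between the genotypes for 7 genes. It was smaller or more negative in KO for Cat, Me1, Gpx3, Ftl1 and Gss (lower for 2.36% of all genes) and larger for Gsta4 and Txnip (higher for 2.89% of all genes). The median of this difference was -0.32 over the 40 genes and 0.03 over all genes, and 32 of 40 values were negative. The 7 calls fell to 3 without WT-OGD replicate 1, KO-OGD replicate 1, WT-recovery replicate 2 or KO-recovery replicate 1, and to 4 without WT-OGD replicate 2 or 3. They rose to 11 without KO-recovery replicate 2 and to 17 without KO-recovery replicate 3. Over all genes the 989 calls became 479 to 599 in the fits that gave 3 or 4 here. They became 1089 and 1770 in those that gave 11 and 17.

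The regulators were near level across the 4 groups. Nfe2l2 read 223, 219.9 and 202 CPM after OGD in WT against 198, 213 and 210.2 in KO, then 211, 231 and 232 after recovery in WT against 201, 168 and 247 in KO. Keap1 read 34.7, 33.3 and 38.1 CPM after OGD in WT against 35.3, 45.4 and 33.0 in KO, then 35.3, 38.1 and 35.9 after recovery in WT against 37.2, 42.5 and 36.4 in KO. The compared groups overlapped in both genes, and no comparison was called. Log2 fold changes of Nfe2l2 (chr2:75675513-75704641) ran from -0.13 to 0.06 over the 4 comparisons and those of Keap1 (chr9:21229730-21239361) from 0.03 to 0.10. Transcript levels do not report on NRF2 protein, which is set mainly by its degradation.

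Glutathione synthesis starts with glutamate-cysteine ligase, made of the catalytic subunit Gclc and the modifier subunit Gclm. Gclc read 84.2, 89.7 and 83.6 CPM after OGD in WT against 87.1, 109 and 92.8 in KO, then 37.1, 45.2 and 45.2 after recovery in WT against 30.4, 30.9 and 43.0 in KO. Gclc was lower after recovery in both genotypes, with no overlap: log2 fold change -1.01, SE 0.13, edgeR adjusted p = 9.57e-06 in WT and log2 fold change -1.46, SE 0.13, edgeR adjusted p = 1.87e-07 in KO. Gclm read 165, 146 and 136 CPM after OGD in WT against 147, 242 and 153 in KO, then 138, 155 and 162 after recovery in WT against 57.1, 54.9 and 131 in KO. In WT the OGD and recovery values of Gclm overlapped, with log2 fold change 0.03, SE 0.32, edgeR adjusted p = 0.952. In KO it was lower after recovery than after OGD, with log2 fold change -1.15, SE 0.33, edgeR adjusted p = 0.0123. Between genotypes after recovery all 3 KO libraries lay below all 3 WT libraries, but KO-recovery replicate 3 lay close under them, and the test did not pass (log2 fold change -0.90, SE 0.33, edgeR adjusted p = 0.0786). Without that library the same comparison gave a log2 fold change of -1.44 (SE 0.20, edgeR adjusted p = 0.000629), and Gclc, at -0.29 with all libraries (SE 0.13, adjusted p = 0.125), gave -0.48 (SE 0.11, adjusted p = 0.0047).

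Glutathione synthetase (Gss) adds the last amino acid and glutathione reductase (Gsr) recharges oxidised glutathione. Gss read 16.4, 20.2 and 19.5 CPM after OGD in WT against 22.5, 27.9 and 20.6 in KO, then 25.9, 22.9 and 24.2 after recovery in WT against 20.2, 21.2 and 18.7 in KO. Gss was higher after recovery in WT (log2 fold change 0.37, SE 0.12, edgeR adjusted p = 0.0136), while its KO values overlapped (log2 fold change -0.24, SE 0.12, edgeR adjusted p = 0.0889). The difference between these changes was -0.62 on the log2 scale (SE 0.17, edgeR adjusted p = 0.0446), and it missed the threshold in 16 of 21 alternative settings. Gsr read 94.3, 90.6 and 90.5 CPM after OGD in WT against 76.9, 104 and 77.5 in KO, then 88.6, 108 and 105 after recovery in WT against 42.5, 41.9 and 74.9 in KO. WT and KO overlapped in Gsr after OGD and parted after recovery, where KO was 1.89-fold lower (log2 fold change -0.92, SE 0.20, edgeR adjusted p = 0.00656). In KO, Gsr was lower after recovery than after OGD (log2 fold change -0.69, SE 0.20, edgeR adjusted p = 0.0097). In WT the groups overlapped (log2 fold change 0.14, SE 0.20, edgeR adjusted p = 0.576).

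Me1, cytosolic malic enzyme, makes NADPH from malate and showed the widest genotype gap after recovery among the called genes. Me1 read 23.3, 22.2 and 22.1 CPM after OGD in WT against 18.1, 24.3 and 17.5 in KO, then 28.8, 29.0 and 27.5 after recovery in WT against 10.8, 11.2 and 15.1 in KO. Its 6 OGD values interleaved between genotypes, and after recovery every KO value lay below every other library. KO was 2.29-fold lower than WT at that point (log2 fold change -1.20, SE 0.14, edgeR adjusted p = 4.49e-05). Me1 was the 1 gene of the 40 called higher after recovery in WT (log2 fold change 0.33, SE 0.13, edgeR adjusted p = 0.0417) and lower in KO (log2 fold change -0.68, SE 0.14, edgeR adjusted p = 0.000552). The call in WT was lost without any 1 of the 6 WT libraries, with adjusted p from 0.0578 to 0.117. The difference between the changes was -1.02 on the log2 scale (SE 0.19, edgeR adjusted p = 0.00689), which passed in all 21 alternatives run.

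**Figure D3:**
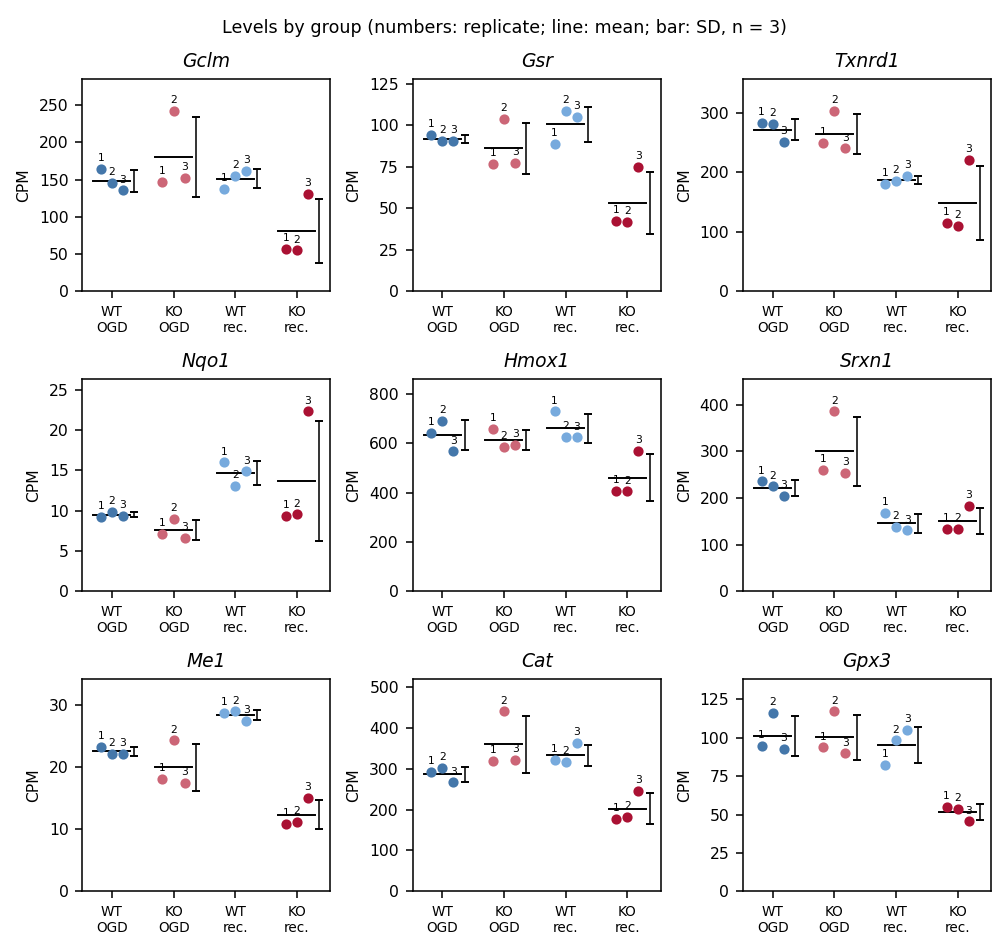
Level in CPM (vertical axis, from 0) of 9 genes in the 4 groups, each point 1 library with its replicate number, with the group mean as a line and the SD (n = 3) as a bar. In Gclm, Gsr, Txnrd1 and Nqo1 the KO-recovery replicate 3 sits well above replicates 1 and 2. In Gpx3, Me1, Cat, Gclm and Gsr all 3 KO-recovery libraries lie below every other library, in Gclm and Gsr narrowly for replicate 3.

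The haem and quinone enzymes moved in different ways. Hmox1 read 642, 691 and 568 CPM after OGD in WT against 660.4, 587 and 595 in KO, then 731, 628 and 625 after recovery in WT against 409, 406 and 571 in KO. Hmox1, haem oxygenase, breaks haem into biliverdin, iron and carbon monoxide. KO-recovery lay below WT-recovery without overlap (log2 fold change -0.52, SE 0.13, edgeR adjusted p = 0.00934), and the KO fall from OGD was log2 fold change -0.41, SE 0.13, edgeR adjusted p = 0.0118. Nqo1 read 9.27, 9.86 and 9.37 CPM after OGD in WT against 7.15, 8.94 and 6.62 in KO, then 15.98, 13.1 and 14.9 after recovery in WT against 9.32, 9.55 and 22.3 in KO. Nqo1, a quinone reductase, was higher after recovery in KO (log2 fold change 0.88, SE 0.27, edgeR adjusted p = 0.0153), a value that KO-recovery replicate 3 raised: without it the change was 0.31 (SE 0.14, edgeR adjusted p = 0.0753). WT values did not overlap either, but the test did not pass (log2 fold change 0.62, SE 0.27, edgeR adjusted p = 0.0729). Blvrb read 73.4, 71.8 and 74.3 CPM after OGD in WT against 102, 98.4 and 85.8 in KO, then 113, 90.2 and 92.2 after recovery in WT against 87.7, 107 and 86.3 in KO. Blvrb, which reduces biliverdin, was higher in KO after OGD (log2 fold change 0.38, SE 0.10, edgeR adjusted p = 0.0362) and higher after recovery in WT (log2 fold change 0.43, SE 0.11, edgeR adjusted p = 0.00292). The OGD call was lost in 7 of 22 alternatives, among them the removal of any 1 WT-OGD library.

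In the thioredoxin system Txnip was the gene with the largest recovery change. Txnip read 18.6, 17.8 and 16.5 CPM after OGD in WT against 15.3, 14.8 and 14.6 in KO, then 282, 287 and 309.5 after recovery in WT against 379, 326 and 330.0 in KO. Txnip (chr3:96557957-96561883) binds and inhibits thioredoxin and curbs glucose uptake. Every recovery library lay far above every OGD library, 16.6-fold in WT (log2 fold change 4.05, SE 0.09, edgeR adjusted p = 9.5e-14) and 23.2-fold in KO (log2 fold change 4.53, SE 0.09, edgeR adjusted p = 6.38e-14). The genotypes also separated after recovery (log2 fold change 0.24, SE 0.08, edgeR adjusted p = 0.048), a call that was lost in 14 of 22 alternatives. Glrx read 12.4, 11.4 and 12.7 CPM after OGD in WT against 8.24, 9.40 and 8.998 in KO, then 65.6, 68.5 and 81.4 after recovery in WT against 38.6, 33.1 and 60.6 in KO. Glrx, glutaredoxin, which uses glutathione to reduce mixed disulfides, was 5.90-fold higher after recovery in WT and 5.00-fold higher in KO. After recovery KO lay below WT (log2 fold change -0.70, SE 0.17, edgeR adjusted p = 0.0103).

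Srxn1 and Txnrd1 were lower after recovery, and the mitochondrial members Txn2 and Txnrd2 were higher. Srxn1 read 236, 225 and 204 CPM after OGD in WT against 259.7, 386 and 254 in KO, then 167, 138 and 130.4 after recovery in WT against 133, 134 and 183 in KO. Sulfiredoxin (Srxn1), which repairs overoxidised peroxiredoxins, was lower after recovery in WT (log2 fold change -0.61, SE 0.17, edgeR adjusted p = 0.00658) and KO (log2 fold change -0.996, SE 0.17, edgeR adjusted p = 0.000168). After OGD the 3 KO values lay above the 3 WT values, but the test did not pass (log2 fold change 0.44, SE 0.16, edgeR adjusted p = 0.152). Txnrd1 read 282, 281 and 251 CPM after OGD in WT against 249, 303 and 240.0 in KO, then 180.4, 185 and 194 after recovery in WT against 115, 110.0 and 220.2 in KO. Cytosolic thioredoxin reductase (Txnrd1) was likewise lower after recovery, with log2 fold change -0.54, SE 0.21, edgeR adjusted p = 0.0467 in WT and log2 fold change -0.83, SE 0.21, edgeR adjusted p = 0.00563 in KO. The WT call for Txnrd1 was lost in 14 of 22 alternatives, with adjusted p up to 0.119. Mitochondrial thioredoxin (Txn2) was higher after recovery by 0.97 in WT and 0.53 in KO, and its reductase Txnrd2 by 0.40 and 0.55, all log2 fold changes. Txn1, cytosolic thioredoxin, was called higher in WT (0.38) and not called in KO (0.02).

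**Figure D4:**
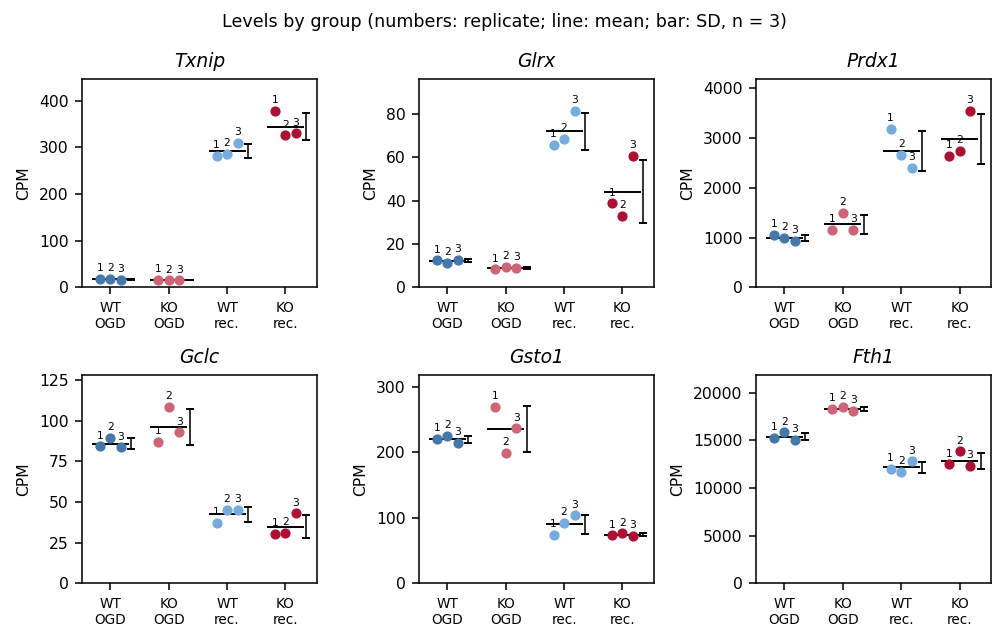
Level in CPM (vertical axis, from 0) of 6 genes in the 4 groups, each point 1 library with its replicate number, with the group mean as a line and the SD (n = 3) as a bar. Txnip, Glrx and Prdx1 are higher in all 6 recovery libraries than in any OGD library, and Gclc, Gsto1 and Fth1 are lower in all 6.

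Peroxiredoxins reduce hydrogen peroxide with electrons from thioredoxin. Prdx1 read 1050.0, 995 and 935 CPM after OGD in WT against 1153, 1491 and 1149 in KO, then 3180.4, 2659.7 and 2397 after recovery in WT against 2635, 2739 and 3550.3 in KO. Prdx1, the main cytosolic form, was higher after recovery, 2.76-fold in WT (log2 fold change 1.47, SE 0.14, edgeR adjusted p = 5.9e-07) and 2.35-fold in KO (log2 fold change 1.23, SE 0.14, edgeR adjusted p = 2.8e-06). The genotypes overlapped after recovery in Prdx1. Prdx2 and Prdx5 were also higher after recovery in both genotypes, with log2 fold changes of 1.26 and 0.88 in WT and 0.96 and 0.46 in KO. Mitochondrial Prdx3 was called higher in WT (0.24) and not in KO (-0.11), and Prdx6, which uses glutathione, was called lower in KO (-0.29) and not in WT (0.05). After recovery Prdx2, Prdx3 and Prdx6 were lower in KO than in WT by -0.29, -0.30 and -0.38, while Prdx4, the form of the endoplasmic reticulum, was called in no comparison.

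All 3 glutathione peroxidases were lower in KO after recovery. Gpx3 read 94.8, 116 and 92.9 CPM after OGD in WT against 93.6, 117 and 89.8 in KO, then 82.3, 98.3 and 105 after recovery in WT against 55.0, 53.9 and 45.5 in KO. Gpx3, the secreted form, gave the largest difference, 1.86-fold (log2 fold change -0.89, SE 0.13, edgeR adjusted p = 0.000241). It was not called in WT during recovery (log2 fold change -0.09, SE 0.12, edgeR adjusted p = 0.577, overlapping groups) and was lower in KO (log2 fold change -0.96, SE 0.13, edgeR adjusted p = 1.25e-05), and the difference between the changes was -0.88 on the log2 scale (SE 0.18, edgeR adjusted p = 0.0112). Gpx4 read 105, 115 and 106 CPM after OGD in WT against 116, 103 and 109 in KO, then 150.1, 145 and 141 after recovery in WT against 103, 124 and 101 in KO. Gpx4 repairs lipid peroxides and is the enzyme whose loss leads to ferroptosis. It was higher after recovery in WT (log2 fold change 0.42, SE 0.09, edgeR adjusted p = 0.000812), its KO groups overlapped (log2 fold change 0.00, SE 0.09, edgeR adjusted p = 0.97), and KO lay below WT after recovery (log2 fold change -0.41, SE 0.09, edgeR adjusted p = 0.00407). Gpx1, the cytosolic form, was higher after recovery in both genotypes (1.01 in WT, 0.72 in KO) and lower in KO than in WT after recovery (-0.40), a call lost in 6 of 22 alternatives.

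Superoxide dismutases turn superoxide into hydrogen peroxide, and catalase breaks that peroxide down. Cat read 293, 301 and 266 CPM after OGD in WT against 319, 440.0 and 321 in KO, then 321, 316 and 363 after recovery in WT against 177, 183 and 246 in KO. Cat was 1.65-fold lower in KO after recovery (log2 fold change -0.72, SE 0.14, edgeR adjusted p = 0.00209). It was lower after recovery than after OGD in KO (log2 fold change -0.83, SE 0.14, edgeR adjusted p = 0.000128) and not called in WT (log2 fold change 0.22, SE 0.14, edgeR adjusted p = 0.196), with a difference between the changes of -1.05 on the log2 scale (SE 0.20, edgeR adjusted p = 0.00749). Sod2 read 116, 109 and 109 CPM after OGD in WT against 117, 106 and 105 in KO, then 139, 138 and 127 after recovery in WT against 91.2, 107 and 102 in KO. Mitochondrial Sod2 was higher after recovery in WT (log2 fold change 0.27, SE 0.08, edgeR adjusted p = 0.00935), overlapped in KO (log2 fold change -0.13, SE 0.08, edgeR adjusted p = 0.185), and was lower in KO than in WT after recovery (log2 fold change -0.43, SE 0.08, edgeR adjusted p = 0.00173). Cytosolic Sod1 was lower in KO after recovery (-0.46) and lower after recovery than after OGD in KO (-0.53).

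Sod3 read 5.59, 8.76 and 8.94 CPM after OGD in WT against 1.23, 0.756 and 2.11 in KO, then 2.97, 0.855 and 0.518 after recovery in WT against 1.19, 2.29 and 1.23 in KO. The 3 WT-OGD libraries stood above the 9 others in Sod3, which held counts of 7 to 430 per library. KO was lower after OGD (log2 fold change -2.49, SE 0.42, edgeR adjusted p = 0.00399), and WT was lower after recovery (log2 fold change -2.60, SE 0.50, edgeR adjusted p = 0.000713). Gsta4 read 2.76, 4.78 and 3.30 CPM after OGD in WT against 0.923, 0.821 and 1.59 in KO, then 1.03, 0.244 and 0.370 after recovery in WT against 1.14, 0.327 and 0.857 in KO. Gsta4 too was highest in WT-OGD, and it was lower in KO after OGD (log2 fold change -1.69, SE 0.35, edgeR adjusted p = 0.00789) and lower in WT after recovery (log2 fold change -2.90, SE 0.47, edgeR adjusted p = 0.000101), with a difference between the recovery changes of 2.46 on the log2 scale (SE 0.67, edgeR adjusted p = 0.046). Markers of other brain cells also stood lower in KO-OGD: 10 of 11 astrocyte markers were lower there than in WT-OGD, the list summed to 129 to 186 CPM in WT-OGD and 55.0 to 76.3 in KO-OGD, and Gjb6 was at 0 in 8 of 12 libraries. Neuron markers summed to 24.3 to 36.3 CPM in WT-OGD and 7.85 to 13.8 in KO-OGD. With the summed astrocyte markers as a covariate the OGD difference was -0.22 for Sod3 (adjusted p = 0.944) and -0.65 for Gsta4 (adjusted p = 0.803), and of all genes tested 37 were called in place of 1411. The summed astrocyte level in WT-recovery was 168 to 192 CPM. The sums of WT-OGD and KO-OGD did not overlap, so the covariate fit cannot tell their part from genotype. The part of other brain cells in the Sod3 and Gsta4 differences was not tested otherwise.

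Those astrocyte markers also moved with the genotype comparison after recovery, where 7 of the 11 were lower in KO and the sum was 168 to 192 CPM in WT and 81.8 to 121 in KO. Neuron markers summed to 78.2 to 93.5 CPM in WT-recovery and 16.2 to 26.2 in KO-recovery, and oligodendrocyte markers to 172 to 214 and 131 to 154. With the astrocyte covariate 11 of the 40 genes and 1954 of all genes were called after recovery, in place of 16 and 4175. The calls of Txnip, Gpx4, Gstp1, Ftl1, Prdx2, Prdx3, Prdx6 and Sod1 were lost, while Gclm, Gclc and Txnrd1 were called lower. Me1, Gsr, Cat, Gpx3, Glrx, Hmox1, Sod2 and Gpx1 kept theirs. The astrocyte sums did not overlap between the genotypes, so the fit cannot tell their part from genotype. KO-recovery replicate 3, the highest of its group in Gclm, Gclc and Txnrd1, had the lowest sum of its group, 81.8 CPM. Border macrophage markers moved the other way, with 3 of 8 higher in KO after recovery and sums of 924 to 1255 CPM in WT and 1334 to 1471 in KO. The part of the neuron, oligodendrocyte and border macrophage markers in these results was not tested. Leaving out KO-recovery replicates 1 and 3, the libraries rich in connective tissue and muscle transcripts, left 1 KO library, assumed to vary like the others, and the calls of Txnip, Gpx4, Sod1, Prdx6 and Ftl1 were lost, while Nfe2l2, Nqo1, Gclc, Gclm and Txnrd1 were called lower. Without the 2 libraries of highest mitochondrial share those of Txnip, Hmox1, Gpx1, Gstp1, Prdx2, Prdx3 and Prdx6 missed the threshold, with adjusted p from 0.0535 to 0.103, while Prdx5 and Gsto1 were called lower and Abcc1 and Cybb higher.

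Glutathione S-transferases attach glutathione to electrophiles, and Abcc1 exports the conjugates. Gsto1 read 220.3, 225 and 214 CPM after OGD in WT against 269, 199.6 and 236 in KO, then 74.2, 92.2 and 104 after recovery in WT against 73.1, 76.3 and 72.0 in KO. Gsto1, an omega-class enzyme, was 2.43-fold lower after recovery in WT (log2 fold change -1.28, SE 0.12, edgeR adjusted p = 3.36e-07) and 3.19-fold lower in KO (log2 fold change -1.67, SE 0.12, edgeR adjusted p = 1.87e-08). Gstp1 read 15.0, 17.2 and 17.2 CPM after OGD in WT against 14.7, 12.5 and 13.3 in KO, then 49.1, 39.1 and 38.9 after recovery in WT against 33.3, 30.5 and 29.5 in KO. Gstp1, the pi-class enzyme, went the opposite way, higher by 1.35 in WT and 1.202 in KO on the log2 scale, and was lower in KO than in WT after recovery (log2 fold change -0.44, SE 0.11, edgeR adjusted p = 0.00887). Abcc1 was higher after recovery in both genotypes (0.69 and 0.74). Gstm1 was called in no comparison, and its log2 fold changes ran from -0.12 to 0.16.

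Ferritin stores iron in a form that cannot feed radical chemistry. Fth1 read 15260.2, 15829 and 15077 CPM after OGD in WT against 18256, 18511 and 18036 in KO, then 11969, 11706 and 12779 after recovery in WT against 12473, 13839.9 and 12275 in KO. Every recovery value of Fth1 lay below every OGD value, with log2 fold change -0.34, SE 0.09, edgeR adjusted p = 0.0059 in WT and log2 fold change -0.51, SE 0.09, edgeR adjusted p = 0.000279 in KO. After OGD the KO values of Fth1 lay above the WT values without passing (log2 fold change 0.25, SE 0.09, edgeR adjusted p = 0.149). Ftl1 read 5148, 5352 and 5222 CPM after OGD in WT against 7007, 5857 and 6665 in KO, then 6006, 6415 and 5267 after recovery in WT against 4233, 5036 and 4343 in KO. Ftl1 was lower after recovery in KO (log2 fold change -0.52, SE 0.11, edgeR adjusted p = 0.000765) and not called in WT (log2 fold change 0.17, SE 0.11, edgeR adjusted p = 0.195). The difference between these changes was -0.69 on the log2 scale (SE 0.15, edgeR adjusted p = 0.0179), and it missed the threshold in 6 of 21 alternatives. After recovery KO was lower than WT (log2 fold change -0.38, SE 0.11, edgeR adjusted p = 0.0212), a call lost in 5 of 22.

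The NADPH oxidase of phagocytes makes superoxide, and Cybb is its membrane-bound catalytic subunit. Cybb read 939.7, 918 and 915 CPM after OGD in WT against 1041, 1092 and 1007 in KO, then 1734, 1460.1 and 1414 after recovery in WT against 1671, 1837 and 2131 in KO. Cybb was higher after recovery in WT (log2 fold change 0.73, SE 0.11, edgeR adjusted p = 2.97e-05) and in KO (log2 fold change 0.84, SE 0.11, edgeR adjusted p = 6.73e-06), and between genotypes it did not pass after OGD (log2 fold change 0.18, SE 0.11, edgeR adjusted p = 0.414) or after recovery (log2 fold change 0.29, SE 0.11, edgeR adjusted p = 0.0594). Ncf1, the organiser subunit, was higher in WT after recovery (0.36) and not called in KO (0.18). Osgin1, an NRF2 target linked to growth inhibition, was called in no comparison, with log2 fold changes from -0.27 to 0.32.

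**Figure D5:**
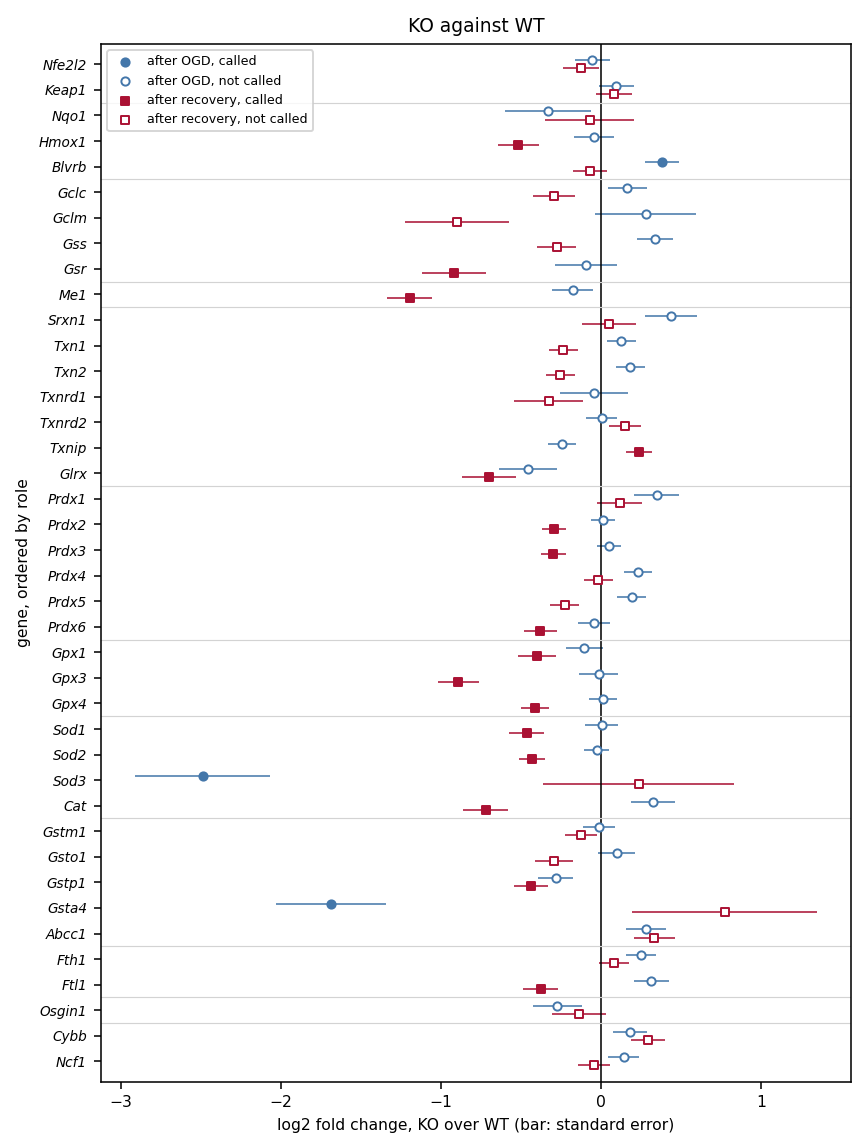
Log2 fold change of KO over WT (horizontal axis) for each of the 40 genes, after OGD (blue circles) and after recovery (red squares), with bars of 1 standard error, filled where the edgeR adjusted p was below 0.05. After OGD only Sod3, Gsta4 and Blvrb are filled, and after recovery 15 filled squares lie left of 0, from Me1 at -1.20 to Prdx2 at -0.29, and Txnip lies right of it at 0.24.

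Libraries stood apart within 3 of the 4 groups. WT-recovery replicate 1, 1 of the 2 libraries of highest mitochondrial share, differed from replicates 2 and 3 by a chi-square per degree of freedom of 60.2 and 50.7, against 6.66 between those, and it was above both in 21 of the 40 genes and over 1.2 times their mean in 9. Without it KO against WT after recovery lost the calls of Txnip and Prdx6, while Gsto1 was called lower and Abcc1 and Cybb higher, and recovery against OGD in WT lost those of Gss, Me1 and Txnrd1. KO-recovery replicate 3 was over 1.2 times the mean of replicates 1 and 2 in 15 of the 40 genes, by 2.37 for Nqo1, 2.33 for Gclm, 1.96 for Txnrd1, 1.78 for Gsr, 1.69 for Glrx, 1.44 for Gpx1, 1.40 for Hmox1 and 1.40 for Gclc. KO-OGD replicate 2 was over 1.2 times the mean of its group's other two in 14 of the 40, by 1.61 for Gclm, 1.501 for Srxn1, 1.36 for Me1 and 1.34 for Gsr. With KO-recovery replicate 3 left out, KO against WT after recovery gave -0.73 for Txnrd1 (SE 0.10, adjusted p = 0.000118) and -0.63 for Nqo1 (SE 0.15, adjusted p = 0.00495), both uncalled with it at -0.33 and -0.07. Nfe2l2 then stood at -0.29 (SE 0.09, adjusted p = 0.0292). KO-recovery replicate 3 was 1 of the 2 libraries rich in connective tissue and muscle transcripts, and replicate 1, the other, was low in the same antioxidant genes. The mitochondrial share of KO-recovery replicate 3, 4.72%, was the lowest of the 6 recovery libraries. What set that library apart was not tested.

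The wider pathway was read from 73 other redox genes, of which 70 were tested. After OGD none was higher in KO and 2 were lower, Gpx8 (log2 fold change -1.43, SE 0.34, edgeR adjusted p = 0.0188) and Sesn3 (log2 fold change -1.04, SE 0.19, edgeR adjusted p = 0.00309), where 0.966% of all genes were higher and 6.52% lower. After recovery 7 were higher and 11 lower in KO, shares near those over all genes (10.1% and 12%). Gstt2 (0.78), Gstk1 (0.82) and Akr1b8 (0.67) led upward, and the iron exporter Slc40a1 (log2 fold change -1.92, SE 0.15, edgeR adjusted p = 1.85e-06) led downward, before Sesn3 (-1.68) and Ggt5 (-1.61). Of 8 other NADPH supply genes 4 were lower in KO after recovery and none was higher. Slc40a1 read 177, 163 and 142 CPM after OGD in WT against 157, 249.7 and 169.9 in KO, then 199.6, 211 and 208 after recovery in WT against 50.8, 51.4 and 60.8 in KO. Every KO-recovery value of Slc40a1 lay below every other library, and the difference between the recovery changes was -2.18 on the log2 scale (SE 0.21, edgeR adjusted p = 7.15e-05).

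After recovery 32 of these 70 genes were higher and 15 lower in WT, beside 26.9% higher and 29.9% lower over all genes. In KO 26 were higher and 17 lower, beside 29.3% and 29.6%. Chac1 read 30.1, 32.3 and 31.3 CPM after OGD in WT against 44.1, 23.1 and 42.9 in KO, then 1.71, 0.977 and 0.814 after recovery in WT against 0.595, 0.653 and 0.375 in KO. Chac1, which breaks glutathione down, was lower after recovery (log2 fold change -4.83, SE 0.31, edgeR adjusted p = 3.67e-08 in WT, log2 fold change -6.11, SE 0.32, edgeR adjusted p = 5.85e-09 in KO). Slc7a11 read 441, 412 and 357 CPM after OGD in WT against 402, 582 and 392 in KO, then 175, 122 and 102 after recovery in WT against 48.2, 47.7 and 141 in KO. Slc7a11, the cystine importer that feeds glutathione synthesis, was lower after recovery in KO (log2 fold change -2.53, SE 0.43, edgeR adjusted p = 0.000824), with replicate 3 again above replicates 1 and 2. In WT too every recovery value of Slc7a11 lay below every OGD value. Sqstm1, whose protein binds KEAP1, was lower by -2.42 in WT and -2.43 in KO. Upward, Gstm2 (2.52), Ggt5 (2.39) and Mgst2 (1.69) led in WT, and Gstt1 (3.52), Mgst2 (2.54) and Ephx1 (2.19) in KO. The 10 other quinone, haem, iron and detoxification genes were all higher after recovery in WT, and 6 of them were in KO, with 1 lower.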

How the data were processed

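RNA from sorted, cultured mouse microglia was sequenced in 12 libraries, 3 in each of 4 groups, and the authors deposited 1 table of whole-number read counts per Ensembl gene. HISAT2, featureCounts and the GRCm38 genome are named in the submitters' processing notes, without versions. Counting options, strand use included, are not given in the sources used here. The labels' protocols name a stranded total RNA kit, while the labels give the molecule as polyA RNA. Gene IDs were matched to GENCODE M21 symbols with versions ignored, and 55154 of 55421 had one.

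Genes were filtered with filterByExpr, libraries were scaled by TMM, and 1 model with a mean per group was fitted to all 12 libraries with edgeR 4.0.16 (quasi-likelihood, robust) in R 4.3.3. Adjusted p-values are Benjamini-Hochberg values over the 18842 genes tested, and a gene is called below 0.05. CPM are counts scaled to a TMM-adjusted library total of 1000000, CPM per kb divides by exon length, and the SE is the log2 fold change over the root of its F statistic. The same kind of edgeR fit was run on simulated counts with known changes, for KO against WT after OGD only. The other comparisons and the alternatives were not simulated. Replicates of a group differed beyond sampling noise (chi-square per degree of freedom 6.66 to 60.2), and all were kept. The precision of low genes is limited by totals of 9885259 to 45347118 counts.

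The members and lists were chosen with earlier results of these data known. Values in every library are given for 15 core genes, for the 6 called members with the largest change in each 2-group comparison, and for called members of the interaction. Of other redox genes at most 3 per direction and comparison are named. Library values of Slc40a1, Chac1 and Slc7a11 are given besides, chosen after their values were seen. Alternatives were other size factors, DESeq2 1.42.0, no filter, thinning to equal depth, fewer libraries, a replicate block and an astrocyte-marker covariate. One more, leaving out KO-OGD replicate 2 and KO-recovery replicate 3 together, was chosen after seeing the data. The single-cell and single-nucleus data of the series were not used here.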

Additional observations from a re-analysis of the deposited data

Results flagged for a closer look

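For 7 of the 40 genes the change from OGD to recovery differed between KO and WT in the interaction test of edgeR, which is what singles them out here. The value given is the log2 change in KO less that in WT. Cat, catalase, gave -1.05 on the log2 scale (SE 0.20, edgeR adjusted p = 0.00749), and Me1, malic enzyme, gave -1.02 on the log2 scale (SE 0.19, edgeR adjusted p = 0.00689). Both passed in all 21 alternatives run. Gpx3 gave -0.88 on the log2 scale (SE 0.18, edgeR adjusted p = 0.0112) and passed in 20 of 21, the exception being the fit without KO-recovery replicates 1 and 3. Ftl1 gave -0.69 on the log2 scale (SE 0.15, edgeR adjusted p = 0.0179) and passed in 15 of 21. Txnip gave 0.48 on the log2 scale (SE 0.12, edgeR adjusted p = 0.0302), in a gene that was higher after recovery in both genotypes, and passed in 10 of 21. Gsta4 gave 2.46 on the log2 scale (SE 0.67, edgeR adjusted p = 0.046), from 4 to 162 counts per library, and passed in 7 of 21. Gss gave -0.62 on the log2 scale (SE 0.17, edgeR adjusted p = 0.0446) and passed in 5 of 21. WT-recovery differs from the other groups in Xist as well, and its part in these values was not tested.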

How the results depend on the processing

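Of 78 called pairs of gene and comparison, 44 were called in every alternative, 34 were lost in at least 1, and none changed sign. Among the 122 uncalled pairs 54 changed sign in some alternative. The number of the 40 genes called was 3 for KO against WT after OGD, 16 after recovery, 26 for recovery against OGD in each genotype and 7 for the difference between those changes. Over all genes tested it was 1411, 4175, 10701 in WT, 11113 in KO and 989. After OGD the number of the 40 became 7 with DESeq2, 10 without the filter and 7 with only the 6 libraries compared. Over all genes these fits called 1776, 2148 and 1919 in place of 1411. Dropping the 2 libraries highest in mitochondrial share gave 5 of the 40 and 1820 of all genes. Leaving out KO-OGD replicate 2 and KO-recovery replicate 3 gave 7 of the 40 and 1614 of all genes. The astrocyte covariate in edgeR gave 0 of the 40 and 37 of all genes. In that fit 11 of the 40 had an unadjusted edgeR p under 0.05. The share over all genes at that threshold was not counted. After recovery the number of the 40 became 10 with only the libraries compared (2756 over all genes). For recovery in KO it became 17 with the astrocyte covariate (6734 over all genes). For the difference between changes the number of the 40 became 17 with DESeq2, 16 without the filter and 4 when thinned to equal depth. It became 19 without KO-OGD replicate 2 and KO-recovery replicate 3. Over all genes these fits called 1517, 1980, 572 and 2135. Leaving out 1 library at a time gave 1 to 4 of the 40 after OGD, 12 to 23 after recovery, 23 to 27 for recovery in WT, 25 to 27 in KO and 3 to 17 for the difference. Over all genes those fits called 524 to 1742, 2653 to 5279, 9512 to 11452, 9979 to 11717 and 479 to 1770. The cause of these shifts was not tested. A replicate block called 2, 15, 24, 26 and 4 of the 40 in the same order. Over all genes that fit called 1179, 3641, 10269, 10681 and 657. Same-numbered libraries did not deviate together (correlations from -0.27 to 0.18 over pairs of groups), so the numbers are not taken to pair them. With counts thinned to the shallowest library, the calls of Gsta4 after OGD (-1.32, adjusted p = 0.0896), Txnip after recovery, Txnrd1 for recovery in WT, Prdx6 for recovery in KO, and Gss, Txnip and Gsta4 for the difference between changes were lost.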
